A study of Mus musculus with 8 samples.

Results

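The genes described here encode the transcription factor NRF2, its relatives, the ubiquitin ligase that destroys it and the proteins that share its DNA sites. They are 10 genes of the 22165 in the deposited count table, chosen by symbol: Nfe2l2 and Nfe2l1, the ligase genes Keap1, Cul3 and Rbx1, the small MAF genes Mafg, Maff and Mafk, and the repressor genes Bach1 and Bach2. All 10 passed the filter on low counts and were tested among 11079 genes. Poly(A) RNA was sequenced from macrophages grown from bone marrow of C57BL/6 mice for 7 days with M-CSF, the macrophage growth factor. The groups were Nrf2 knockout cells (KO) given 250 µM dimethyl itaconate (DI) for 12 h, KO cells left untreated, wild-type cells (WT) given the same DI treatment, and WT cells left untreated. Each group had 2 libraries, numbered replicate 1 and 2 in the labels. DI is a membrane-permeable, electrophilic ester of itaconate, and the series title asks how the electrophilic stress it causes acts on inflammation mediated by IκBζ. The knockout mice came from a commercial breeder, and the labels describe neither the deleted part of the gene nor the source of the WT mice. Whether 2 libraries of a group stem from separate mice or cultures is not labelled, so p-values reflect library-to-library spread alone, possibly technical.

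NRF2 is held at a low level by KEAP1, an adaptor that presents it to a ligase built on the scaffold CUL3 and the RING protein RBX1, which marks it for the proteasome. Electrophiles modify cysteines of KEAP1, so that newly made NRF2 escapes, enters the nucleus and pairs with a small MAF protein on antioxidant response elements (AREs) of detoxification genes. Small MAFs carry no activation domain of their own and also pair with BACH1 and BACH2, which repress many of the same sites. NRF1, the product of Nfe2l1, belongs with NRF2 and the BACH proteins to the CNC family, is anchored in the endoplasmic reticulum and is best known for raising proteasome genes. Because KEAP1 acts on NRF2 protein, a change in NRF2 activity needs no change in Nfe2l2 mRNA.

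Promoter sequences of all 10 genes, from 250 bases before to 50 bases after each annotated start, were taken from RefSeq (GRCm38.p6), 16 promoters in all. They were searched on both strands for the ARE core, spelled TGACNNNGC, and for the AP-1 motif TGACTCA. An ARE core match was present in 4 of the 16 promoters, those of Nfe2l2, Mafg, Mafk and 1 of 3 for Maff, whereas 12.4% of all 32851 promoters in the table hold one. No member promoter held TGACTCA, which 5.20% of all promoters hold, and none of the promoters searched for Nfe2l1, Keap1, Cul3, Rbx1, Bach1 or Bach2 held the ARE core. The Bach2 promoter searched, chr4:32417185-32417484, lies inside the gene span given below, which starts at 32238804. The region at that start was not searched. The stretches around the matches are shown because these are the members with a match. They run 5′ to 3′ on the gene's strand, upstream of the RefSeq start, with the match in capitals. Gene spans given below come from GENCODE, whose starts can differ. The Mafk stretch spans the GENCODE start of Mafk, 139791513, so by that annotation its match lies inside the gene.
Nfe2l2, chr2:75704865-75704913, minus strand, match beginning 240 bases before the start: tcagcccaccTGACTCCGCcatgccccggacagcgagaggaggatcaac
Mafg, chr11:120633731-120633797, minus strand, match beginning 222 bases before the start: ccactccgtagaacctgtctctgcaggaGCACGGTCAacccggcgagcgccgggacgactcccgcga
Maff, chr15:79346479-79346547, plus strand, match beginning 112 bases before the start: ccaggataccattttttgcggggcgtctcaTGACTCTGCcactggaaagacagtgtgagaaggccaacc
Mafk, chr5:139791493-139791535, plus strand, match beginning 13 bases before the start: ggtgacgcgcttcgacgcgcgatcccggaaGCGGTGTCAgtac
In Mafg and Mafk the motif is on the opposite strand, where it reads TGACCGTGC and TGACACCGC. A match is a run of letters in a window and was not tested as a binding site.

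The libraries held 5554288 to 15680671 counts. Levels are in CPM, counts divided by the TMM-adjusted library size on the usual CPM scale. Changes are log2 fold changes ± standard error from edgeR's quasi-likelihood fit of all 8 libraries, and a gene is called where its Benjamini-Hochberg adjusted p over all 11079 genes is under 0.05. All 8 macrophage markers, among them Adgre1, Csf1r and Cd68, had counts in every group. They summed to 3489 to 4156 CPM in KO DI libraries, 5259 to 5374 in KO untreated libraries, 4150 to 4725 in WT DI libraries and 4232 to 4465 in WT untreated libraries. The sums hide changes of single markers. With DI, 3 of the 8 were called lower and 0 higher in each genotype, where 8.48% (KO) and 15.2% (WT) of all tested genes were called. In WT cells these were Cd14, Itgam and Fcgr1, at -1.68 ± 0.23, -1.18 ± 0.26 and -0.96 ± 0.22. In KO cells they included Adgre1 and Csf1r, at -0.75 ± 0.21 and -0.87 ± 0.23. Markers of stromal cells moved with genotype, at 61.2 to 71.1 CPM in KO DI and 63.5 to 70.8 in KO untreated libraries, against 186 to 202 in WT DI and 142 to 186 in WT untreated libraries, with Lum of the 6 markers at 0 in every group. Neutrophil markers summed to 248 to 304, 268 to 310, 253 to 324 and 375 to 384 CPM in the KO DI, KO untreated, WT DI and WT untreated libraries, with none of the 10 at 0 in any group. The part of these other cells in the results was not tested, and in such bulk RNA fewer cells of a type cannot be told apart from less RNA per cell.

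**Figure D1:**
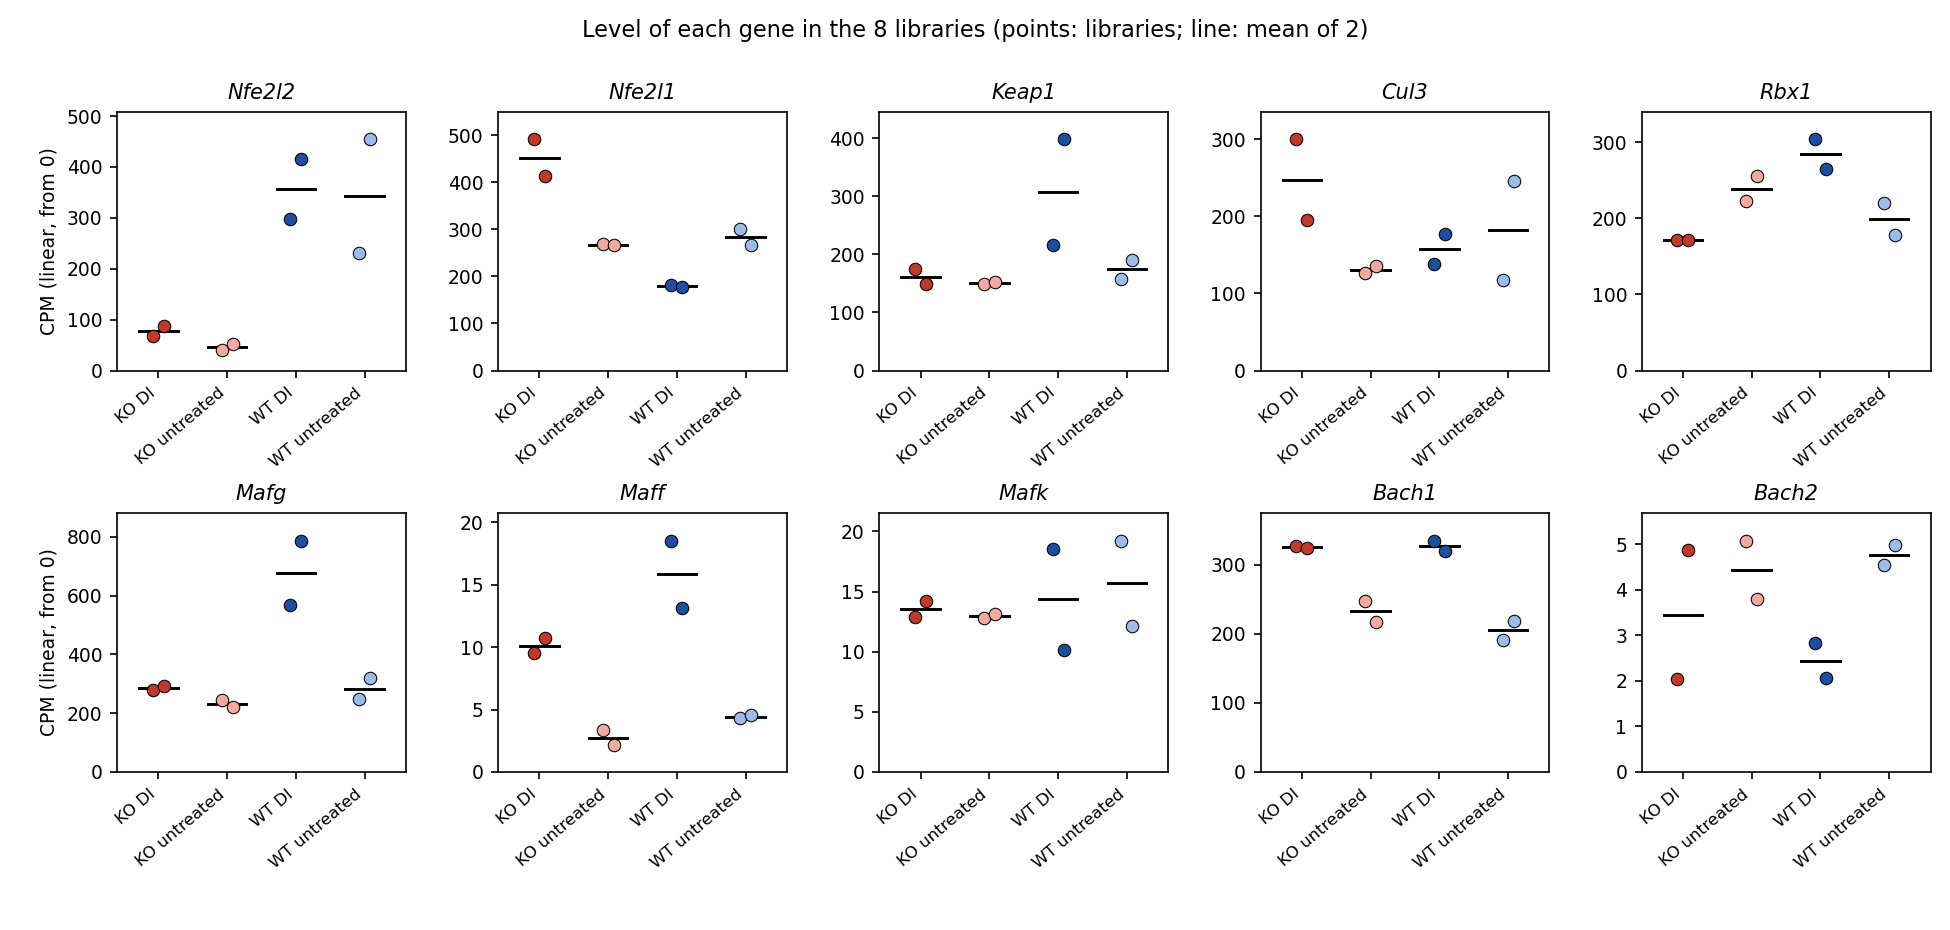
Level of each of the 10 genes in CPM (vertical axes, linear from 0, a scale of its own for each gene) in the KO DI, KO untreated, WT DI and WT untreated groups. Points are the 2 libraries of a group and the line is their mean. Nfe2l1 was highest in KO DI libraries and lowest in WT DI libraries, and Mafg was highest in WT DI libraries.

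Nfe2l2 (ENSMUSG00000015839, minus strand of chromosome 2, 75675513 to 75704641 of mm10), which encodes NRF2, is the gene targeted in the knockout. It had 67.7 and 88.1 CPM in KO DI libraries and 40.2 and 53.0 CPM in KO untreated libraries. The WT DI libraries had 299 and 416 CPM and the WT untreated libraries 230 and 454 CPM. All 4 KO libraries lay below all 4 WT libraries, while the treated and untreated WT libraries overlapped. Under DI, Nfe2l2 was lower in KO than in WT cells by a log2 fold change of -2.20 ± 0.33 (edgeR adjusted p = 0.000784), a call kept in every fit without 1 library. Without treatment the KO over WT difference was -2.87 ± 0.34 (edgeR adjusted p = 0.00190), and without KO untreated replicate 1 it was -2.69 with adjusted p = 0.0884. The 3′ tags counted here may lie outside the deleted part, so they check the deletion weakly, and the counts left in KO cells do not show that a working protein is made.

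DI did not change Nfe2l2 mRNA past the test in either genotype. In WT cells the change was 0.06 ± 0.31 (edgeR adjusted p = 0.915), and it was -0.35 without WT untreated replicate 1 and 0.63 without WT untreated replicate 2, the libraries at 230 and 454 CPM. In KO cells both DI libraries lay above both untreated libraries, and the change was 0.74 ± 0.32 (edgeR adjusted p = 0.171). The KO minus WT difference of these changes was 0.67 ± 0.45 (edgeR adjusted p = 0.358). Among the NRF2 target genes, Gclm, which encodes a subunit of glutamate-cysteine ligase, had 4140 and 4286 CPM in WT DI libraries and 130 and 134 CPM in WT untreated libraries, a log2 fold change of 5.0 ± 0.24 (edgeR adjusted p = 6.94e-07). In KO cells it had 91.4 and 90.2 CPM with DI and 33.4 and 39.9 CPM without.

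Nfe2l1, which encodes NRF1 (ENSMUSG00000038615, minus strand of chromosome 11, 96817414 to 96829968), was the only member whose DI response differed between genotypes past the test. It rose with DI in KO cells, where the DI libraries had 491 and 414 CPM and the untreated libraries 268 and 267 CPM, a log2 fold change of 0.76 ± 0.21 (edgeR adjusted p = 0.0453). In WT cells the libraries stood the other way round, at 181 and 178 CPM with DI and 301 and 266 CPM without. That difference of -0.66 ± 0.21 narrowly missed the threshold (edgeR adjusted p = 0.0527), and DESeq2 called it lower (adjusted p = 0.0223). The KO response minus the WT response was 1.42 ± 0.30 (edgeR adjusted p = 0.0154).

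Treated cells of the 2 genotypes were accordingly far apart in Nfe2l1. KO DI cells averaged 452 ± 54.9 CPM and WT DI cells 179 ± 2.39 CPM (SD, n = 2 each), a log2 fold change of 1.34 ± 0.21 (edgeR adjusted p = 0.00118), or 2.52-fold, which stayed called in every alternative tried. Untreated KO and WT cells averaged 268 ± 1.14 and 283 ± 24.7 CPM and differed by -0.08 ± 0.21 (edgeR adjusted p = 0.944). In the order of the groups, KO DI stood above WT untreated and KO untreated, which overlapped, and WT DI stood below all others. The changes within each genotype were the less firm parts of this pattern. The fall in WT cells was not called by edgeR in the reported fit and spanned -0.75 to -0.57 without 1 library. The rise within KO cells was called, but not firmly. It missed the threshold in 6 of 8 fits without 1 library, with adjusted p = 0.238 and 0.242 without KO untreated replicate 1 and 2, 0.211 and 0.0535 without KO DI replicate 1 and 2, and 0.058 and 0.0569 without WT untreated replicate 1 and 2. The difference of the responses missed it without KO untreated replicate 1 and 2 (adjusted p = 0.0872 and 0.0825).

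**Figure D2:**
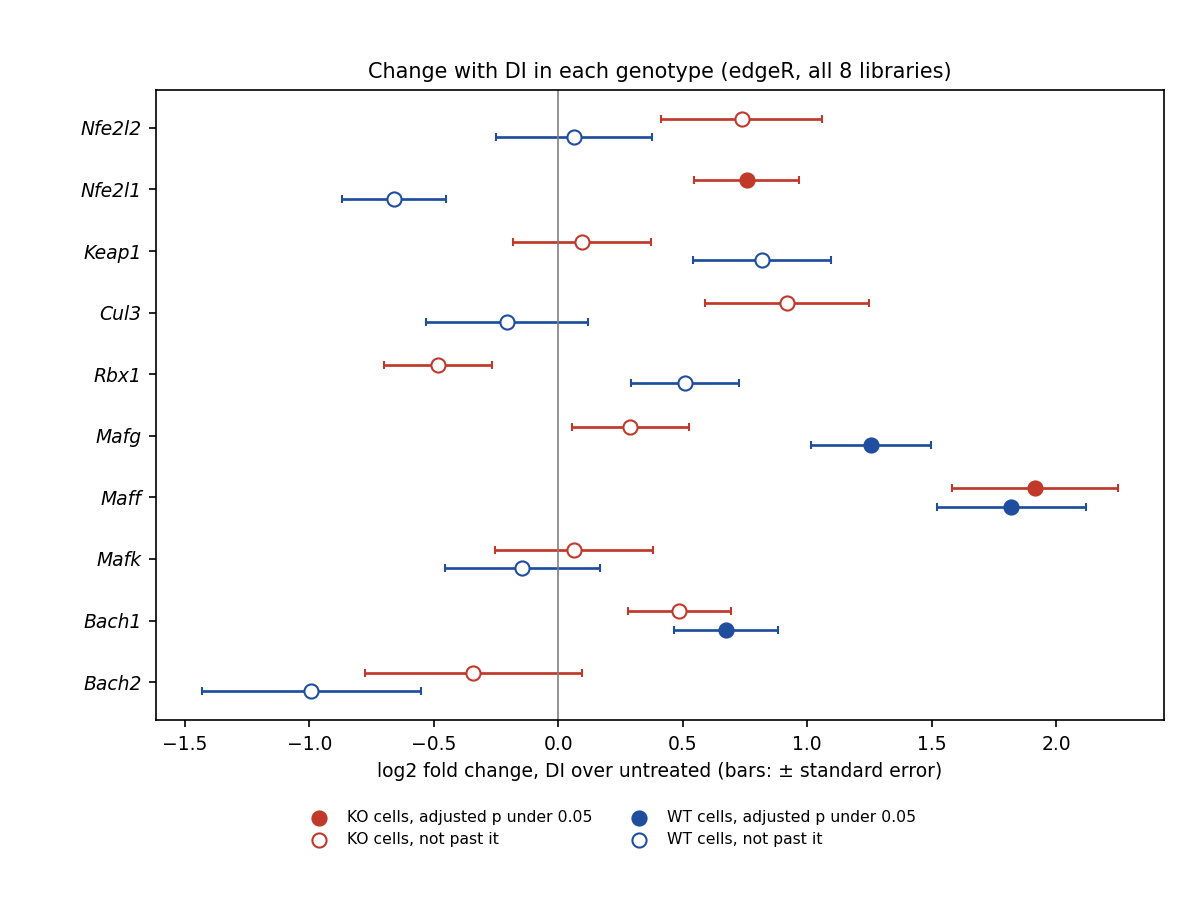
Log2 fold change of DI over untreated cells (horizontal axis) for each gene in KO cells (red, upper point) and WT cells (blue, lower point), with bars of ± 1 standard error and filled points where the edgeR adjusted p was under 0.05. Maff was called higher in both genotypes, Mafg and Bach1 in WT cells and Nfe2l1 in KO cells.

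Among all 10 genes, DI called 2 higher and 0 lower in KO cells, where 8.48% of all tested genes were called, 4.49% higher and 4.0% lower. In WT cells it called 3 higher and 0 lower, where 15.2% of all tested genes were called, 6.51% higher and 8.68% lower. DESeq2 called 11.5% of its tested genes in KO cells and 16.5% in WT cells. The difference of the responses was called for 1 of the 10, higher in KO cells, where 7.55% of all tested genes were called, 4.96% higher and 2.59% lower, and DESeq2 called 11.7%. The median log2 change of the 10 genes was 0.39 in KO cells and 0.29 in WT cells, and over all tested genes it was 0.0046 and -0.02. At an unadjusted p under 0.05 there were 6 genes in KO cells and 7 in WT cells, where 26.4% and 30.8% of all tested genes lay under it. Treated and untreated libraries did not overlap for 7 of the 10 genes in either genotype, which held for 58.5% of all tested genes in KO cells and 58.0% in WT cells. With 2 libraries a group, non-overlap is therefore common, and the calls below rest on the fitted test.

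Keap1 encodes the adaptor that recognises NRF2 and senses electrophiles (ENSMUSG00000003308, minus strand of chromosome 9, 21229730 to 21239361). It had 174 and 149 CPM in KO DI libraries and 149 and 153 CPM in KO untreated libraries, which overlap. The WT DI libraries had 215 and 398 CPM and the WT untreated libraries 157 and 191 CPM, so both treated WT libraries lay above all others but were far apart. The DI change was 0.10 ± 0.28 in KO cells (edgeR adjusted p = 0.853) and 0.82 ± 0.28 in WT cells (edgeR adjusted p = 0.0655). DESeq2 called the WT change, with adjusted p = 0.0307. Without WT DI replicate 1 the WT change was 1.23 (edgeR adjusted p = 0.00998), and without WT DI replicate 2 it was 0.33 (edgeR adjusted p = 0.427).

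Under DI, Keap1 was lower in KO than in WT cells by -0.93 ± 0.28 (edgeR adjusted p = 0.0341). Without WT DI replicate 2 the gene was not called, and the difference was -0.43 (adjusted p = 0.272). Nor was it called without KO DI replicate 1 or 2 or KO untreated replicate 1 or 2 (adjusted p = 0.0871, 0.137, 0.0533 and 0.0548). The DI responses of the genotypes differed by -0.72 ± 0.39, which did not pass (edgeR adjusted p = 0.260).

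Rbx1 encodes the RING subunit that recruits the ubiquitin-loaded enzyme to cullins (ENSMUSG00000022400, plus strand of chromosome 15, 81466296 to 81476369). It had 171 and 171 CPM in KO DI libraries and 223 and 255 CPM in KO untreated libraries. The WT DI libraries had 304 and 264 CPM and the WT untreated libraries 220 and 179 CPM. Treated KO libraries thus lay below untreated ones, and treated WT libraries lay above untreated ones. Neither change passed the test, at -0.48 ± 0.22 in KO cells (edgeR adjusted p = 0.180) and 0.51 ± 0.22 in WT cells (edgeR adjusted p = 0.131). Their difference was -0.99 ± 0.31 with edgeR adjusted p = 0.0670 and was called by DESeq2 (adjusted p = 0.0237). Under DI, Rbx1 was lower in KO than in WT cells by -0.73 ± 0.22 (edgeR adjusted p = 0.0327), a call lost without KO DI replicate 1 or 2, KO untreated replicate 1 or 2 or WT DI replicate 1 (adjusted p = 0.118, 0.096, 0.0554, 0.0618 and 0.105).

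Cul3, the scaffold of the ligase (ENSMUSG00000004364, minus strand of chromosome 1, 80264923 to 80340480), differed widely between the libraries of the KO DI and WT untreated groups. It had 300 and 195 CPM in KO DI libraries and 126 and 135 CPM in KO untreated libraries. The WT DI libraries had 138 and 177 CPM and the WT untreated libraries 118 and 246 CPM. The treated KO libraries lay above the untreated ones, and in WT cells the untreated libraries spanned the treated ones. The DI change was 0.92 ± 0.33 in KO cells (edgeR adjusted p = 0.101, DESeq2 adjusted p = 0.047) and -0.21 ± 0.32 in WT cells (edgeR adjusted p = 0.703). Their difference, KO minus WT, was 1.13 ± 0.46 and did not pass (edgeR adjusted p = 0.146). The WT value was -0.64 without WT untreated replicate 1 and 0.42 without WT untreated replicate 2.

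A property of the coding sequence moved with these values. Tested genes were classed by how many A their most A-rich stretch of 15 coding bases holds, and the A-rich classes stood higher in KO DI and lower in WT DI libraries. Among the 950 genes that reach 12 A, the class of Nfe2l2, the median deviation of log2 CPM from a gene's mean was 0.24 and 0.18 in KO DI, -0.02 and -0.09 in KO untreated, -0.28 and -0.17 in WT DI and -0.02 and 0.15 in WT untreated libraries. The cDNA primer of the labels' protocol carries a run of T, and the part of priming in coding sequence was not tested. Cul3 reaches 11 A, Nfe2l1, Mafg, Bach1 and Bach2 reach 10, Keap1 9, Rbx1 and Mafk 8 and Maff 6. With this trend removed per library, the KO over WT difference under DI was -0.72 for Keap1 (edgeR adjusted p = 0.105) and -0.44 for Rbx1 (edgeR adjusted p = 0.161), so neither was called. The corresponding values of Nfe2l2, Nfe2l1 and Mafg, at -2.62, 1.34 and -1.25, were still called. The rise of Nfe2l1 with DI in KO cells was then 0.73 and narrowly missed the threshold (edgeR adjusted p = 0.051). Cul3 had a DI change of 0.72 in KO cells and 0.042 in WT cells.

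Mafg (ENSMUSG00000051510, minus strand of chromosome 11, 120625117 to 120633600) encodes a small MAF and rose with DI in WT cells. It had 567 and 787 CPM in WT DI libraries and 247 and 320 CPM in WT untreated libraries. Both treated WT libraries lay above every other library, and the log2 fold change was 1.26 ± 0.24, or 2.39-fold (edgeR adjusted p = 0.00442). In KO cells it had 279 and 291 CPM with DI and 246 and 220 CPM without, a change of 0.29 ± 0.24 that did not pass (edgeR adjusted p = 0.468). Under DI, Mafg was lower in KO than in WT cells by -1.25 ± 0.24 (edgeR adjusted p = 0.00363). Both of these calls were kept in all 14 alternatives. The responses of the genotypes differed by -0.97 ± 0.33, which edgeR did not call (adjusted p = 0.0959) and DESeq2 did (adjusted p = 0.0489). The last 124 bases of Mafg overlap Sirt7 on the same strand, so reads in that stretch may be missing from the count or assigned to either gene.

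Maff, a small MAF gene known as inducible by stress and cytokines (ENSMUSG00000042622, plus strand of chromosome 15, 79346621 to 79359076), rose with DI in both genotypes. It had 9.50 and 10.7 CPM in KO DI libraries and 3.32 and 2.17 CPM in KO untreated libraries. The WT DI libraries had 18.5 and 13.1 CPM and the WT untreated libraries 4.28 and 4.59 CPM. No treated library overlapped an untreated one. The log2 fold change was 1.92 ± 0.33 in KO cells (edgeR adjusted p = 0.00769) and 1.82 ± 0.30 in WT cells (edgeR adjusted p = 0.00165), or 3.77-fold and 3.53-fold.

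The difference between the Maff responses was 0.09 ± 0.44 (edgeR adjusted p = 0.915), which does not show that they are equal. Maff stood lower in KO than in WT cells in both treatments, by -0.64 ± 0.29 with DI (edgeR adjusted p = 0.131) and -0.73 ± 0.34 without (edgeR adjusted p = 0.479), and neither passed. These are low levels. The untreated groups rest on 39 counts in KO cells and 120 in WT cells, and exact 95% Poisson intervals of the pooled level, which cover counting error only, were 1.86 to 3.57 CPM and 3.70 to 5.33 CPM. Without KO untreated replicate 2, the KO response was 1.61 with edgeR adjusted p = 0.0973.

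Mafk, the third small MAF gene (ENSMUSG00000018143, plus strand of chromosome 5, 139791513 to 139802653), was not called in any comparison. It had 12.9 and 14.2 CPM in KO DI libraries, 12.8 and 13.1 in KO untreated libraries, 18.5 and 10.2 in WT DI libraries and 19.2 and 12.2 in WT untreated libraries. All 4 groups overlapped with their neighbours in order of level. The DI change was 0.06 ± 0.32 in KO cells (edgeR adjusted p = 0.918) and -0.14 ± 0.31 in WT cells (edgeR adjusted p = 0.788). These values rest on 194 to 408 counts per group.

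Bach1, the CNC repressor that heme inactivates (ENSMUSG00000025612, plus strand of chromosome 16, 87698945 to 87733346), stood higher in every treated library than in every untreated one. It had 327 and 324 CPM in KO DI libraries and 248 and 217 CPM in KO untreated libraries. The WT DI libraries had 335 and 320 CPM and the WT untreated libraries 192 and 219 CPM. The rise in WT cells was 0.67 ± 0.21, or 1.59-fold (edgeR adjusted p = 0.0475), and DESeq2 called it too (adjusted p = 0.0142). The change in KO cells was 0.49 ± 0.21 and did not pass (edgeR adjusted p = 0.162). The responses differed by -0.19 ± 0.29 (edgeR adjusted p = 0.722), and treated KO and WT cells differed by -0.01 ± 0.21 (edgeR adjusted p = 0.986). The WT call lay at the threshold and was lost without any 1 of the 8 libraries, with adjusted p of 0.0535 to 0.189 and changes of 0.58 to 0.77.

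Bach2, the lymphocyte member of the repressor pair (ENSMUSG00000040270, plus strand of chromosome 4, 32238804 to 32586108), was barely detected. It had 19 and 48 counts in KO DI libraries, 29 and 35 in KO untreated libraries, 18 and 22 in WT DI libraries and 52 and 77 in WT untreated libraries. Those counts correspond to 2.03 and 4.86, 5.07 and 3.80, 2.83 and 2.05, and 4.54 and 4.98 CPM, and the KO DI libraries spanned the range of most others. Both treated WT libraries lay below both untreated ones, a difference of -0.99 ± 0.44 that did not pass (edgeR adjusted p = 0.147). The change in KO cells was -0.34 ± 0.44 (edgeR adjusted p = 0.657). Markers of B cells, in which Bach2 is best known, summed to 3.42 to 3.95 CPM in KO DI, 4.02 to 5.21 in KO untreated, 10.2 in both WT DI and 9.12 to 9.35 in WT untreated libraries. Of the 8 markers, 3 were at 0 in each KO group, 1 in WT DI and 2 in WT untreated cells. The part of B cells in the Bach2 counts was not tested.

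**Figure D3:**
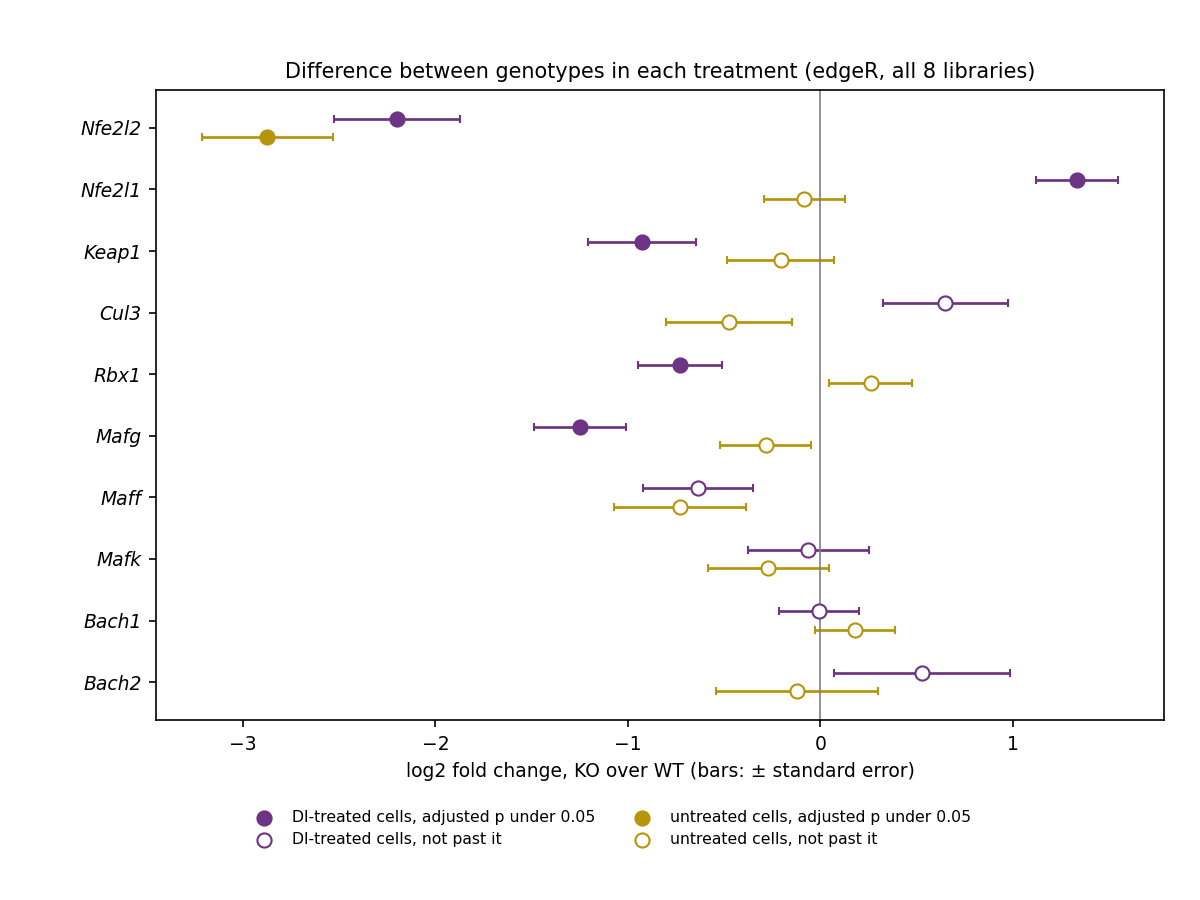
Log2 fold change of KO over WT cells (horizontal axis) for each gene in DI-treated cells (purple, upper point) and untreated cells (gold, lower point), with bars of ± 1 standard error and filled points where the edgeR adjusted p was under 0.05. Nfe2l2 was called lower in both treatments, and Nfe2l1 higher and Keap1, Rbx1 and Mafg lower in DI-treated cells.

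Between genotypes in untreated cells, 1 of the 10 genes was called, Nfe2l2, lower in KO cells, where 0.605% of all tested genes were called, 0.0812% higher and 0.524% lower, and DESeq2 called 1.61%. It was also the 1 gene at an unadjusted p under 0.05, where 10.6% of all tested genes lay under it. The 9 others ranged from -0.73 for Maff to 0.26 for Rbx1 on the log2 scale. Under DI, 1 gene was called higher in KO cells, Nfe2l1, and 4 lower, Nfe2l2, Keap1, Rbx1 and Mafg, where 21.2% of all tested genes were called, 11.4% higher and 9.74% lower, and DESeq2 called 20.2%. KO and WT libraries did not overlap for 7 of the 10 genes under DI and for 5 in untreated cells, which held for 60.6% and 43.5% of all tested genes. The 5 genes that were not called ranged from -0.64 for Maff to 0.65 for Cul3. These comparisons share libraries with the DI comparisons and are not independent of them. Stromal markers, given above, also stood lower in KO than in WT libraries, with 5 of 5 tested called under DI and 2 of 5 in untreated cells, and their part in these differences was not tested.

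Genes with a similar pattern over the 8 libraries were listed for each called member from 7353 genes with a mean of at least 10 CPM, as the 3 with the highest Pearson correlation of log2(CPM + 1). The coefficients describe the pattern over 8 libraries in 4 groups and carry no test. For Nfe2l1 these were Kmt2c, Pggt1b and Kif3a (r = 0.986, 0.980 and 0.977), and for Mafg they were Runx2, Layn and Arrdc4 (r = 0.979, 0.978 and 0.972). For Maff they were Myc, Rab18 and Micall1 (r = 0.984, 0.970 and 0.968), and for Bach1 they were Clk3, Prkab2 and Lars2 (r = 0.985, 0.982 and 0.969). Keap1 was most like Ptpre, Gdi2 and mt-Nd4 (r = 0.975, 0.967 and 0.967), and Rbx1 most like Cox5a, Capza1 and Cdk9 (r = 0.980, 0.975 and 0.969). Nfe2l2, the targeted gene, was most like Tmed7, Col1a2 and Nedd4 (r = 0.967, 0.963 and 0.951), and Col1a2 is a stromal marker.

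Wider regulators of the pathway were called at shares at or below those of all tested genes. They were grouped as NRF2 turnover genes (17 tested), coactivators and DNA-binding antagonists (11), other CNC and large MAF genes (3), NRF1 processing genes (8), cullin-RING machinery (22) and other CUL3 adaptors (33). Together these lists held 94 tested genes. With DI, 30 of the 94 in KO cells and 30 in WT cells had an unadjusted p under 0.05. These are larger shares than the 26.4% and 30.8% of all tested genes. Single lists varied. Between KO and WT cells under DI, 4 of the 11 coactivators and antagonists were called higher and 1 lower. That is a larger share than the 21.2% of all tested genes, and the counts were 2 and 0 with the A-rich trend removed. Of the 33 other CUL3 adaptors, 1 was called higher in that comparison and 3 lower. Of all 94 regulators, DI called 2 higher and 3 lower in KO cells, or 5.32% against 8.48% of all tested genes. In WT cells it called 7 higher and 7 lower, or 14.9% against 15.2%. Between KO and WT cells 10 were higher and 9 lower under DI, or 20.2% against 21.2%, and untreated 0 were called by edgeR and 1 by DESeq2, with 7 of the 94 at an unadjusted p under 0.05, against 10.6% of all tested genes. The difference of the responses was called for 1 of the 94, or 1.06% against 7.55% of all tested genes, and this count was 13 with no filter and 7 with DESeq2, 3 with the replicate block, 7 without KO DI replicate 2, 3 without WT DI replicate 2, 2 without WT untreated replicate 1 and 0 without either KO untreated library, WT untreated replicate 2 or KO DI replicate 1. The counts also moved with the libraries and settings used. The WT DI count of 14 was 4 and 5 without WT untreated replicate 1 and 2 and 8 without either WT DI library, and the KO DI count of 5 was 0 without either KO untreated library or KO DI replicate 1 and 3 without either WT untreated library. It was 12 with no filter, 8 with DESeq2 and 2 with the A-rich trend removed. The KO over WT count of 19 was 5 without KO DI replicate 1, 10 and 7 without WT DI replicate 1 and 2, 9 with the A-rich trend removed and 11 in a fit of only these groups.

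Among these regulators, Sqstm1, which encodes p62, an autophagy receptor that binds KEAP1, had 1397 and 1365 CPM in WT DI libraries and 323 and 310 CPM in WT untreated libraries, a log2 fold change of 2.13 ± 0.25 (edgeR adjusted p = 0.000183). In KO cells it had 1007 and 641 CPM with DI and 356 and 350 CPM without, a change of 1.22 ± 0.24 (edgeR adjusted p = 0.0126) that was not called without either KO untreated library or KO DI replicate 1 (adjusted p = 0.117, 0.114 and 0.0906). The KO response of Sqstm1 minus its WT response was -0.90 ± 0.34 (edgeR adjusted p = 0.117).

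Klhl21, another CUL3 adaptor gene, had 43.5 and 43.1 CPM in WT DI libraries and 16.0 and 11.8 CPM in WT untreated libraries, a rise of 1.65 ± 0.24 (edgeR adjusted p = 0.000843), and in KO cells 10.6 and 13.9 CPM with DI and 8.92 and 9.01 CPM without. It was lower in KO than in WT cells under DI by -1.82 ± 0.25 (edgeR adjusted p = 0.000379). Neither its change in KO cells nor the difference of its responses was called by edgeR. Maf, the large MAF gene of macrophages, fell with DI in WT cells, a log2 fold change of -2.29 ± 0.31 (edgeR adjusted p = 0.000484), at 673 and 412 CPM with DI and 2542 and 2778 CPM without. It also fell in KO cells, at 1258 and 2086 CPM with DI and 4105 and 3104 CPM without, a log2 fold change of -1.11 ± 0.30 (edgeR adjusted p = 0.0417). This KO call was lost without KO DI replicate 1 or without any 1 of the 4 untreated libraries (adjusted p = 0.0591 to 0.258), with the replicate block and with the A-rich trend removed. The KO response of Maf minus its WT response was 1.19 ± 0.42 and did not pass (edgeR adjusted p = 0.102). Under DI it was higher in KO than in WT cells by 1.62 ± 0.30 (edgeR adjusted p = 0.00315).

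**Figure D4:**
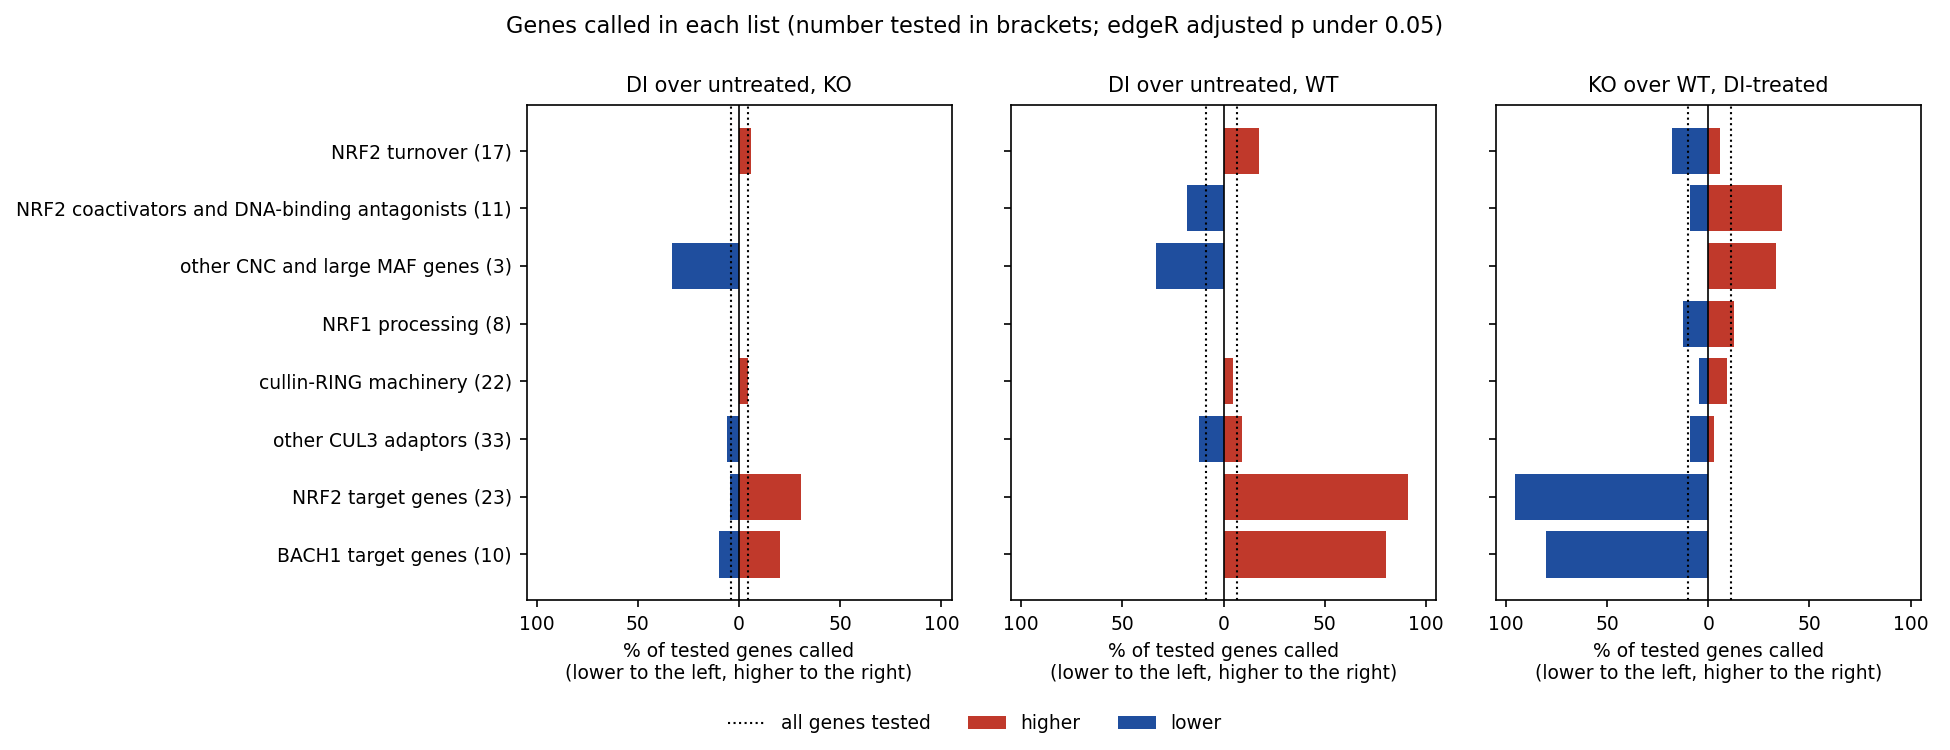
Share of the tested genes of each list (rows, number tested in brackets) called higher (red, to the right) or lower (blue, to the left) by edgeR for DI over untreated in KO cells, DI over untreated in WT cells, and KO over WT in DI-treated cells. Dotted lines mark the share of all tested genes called in each direction. The NRF2 and BACH1 target lists stand far from the dotted lines in WT cells and between genotypes.

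The target genes, in lists chosen with earlier results of these data known, were called more often than tested genes in general. Of all tested genes, DI called 8.48% in KO cells and 15.2% in WT cells. Between genotypes 21.2% were called under DI and 0.605% untreated, and the difference of the responses was called for 7.55%. Of 23 tested NRF2 target genes, DI called 7 higher and 1 lower in KO cells and 21 higher in WT cells, with median log2 changes of 0.62 and 2.90. Under DI 22 were lower in KO than in WT cells (median -3.50), and in untreated cells 9 were lower (median -1.30). For 15 the KO response was smaller than the WT response. The KO counts of 7 and 1 were 0 and 0 without KO untreated replicate 1, 2 and 0 without KO untreated replicate 2 and 3 and 1 without KO DI replicate 1. The 9 lower untreated genes numbered 0 and 2 without KO untreated replicate 1 and 2 and 3 and 4 without WT untreated replicate 1 and 2.

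Of 10 tested genes known as BACH1 targets, DI called 2 higher and 1 lower in KO cells and 8 higher in WT cells, with median log2 changes of -0.14 and 1.57. Between KO and WT cells 8 were lower under DI and 1 untreated, and for 5 the KO response was smaller, or 3 without KO untreated replicate 2 or WT untreated replicate 2. Hmox1, the heme oxygenase gene that BACH1 represses, had 63.5 and 81.9 CPM in KO DI libraries and 15.4 and 16.4 CPM in KO untreated libraries, a rise of 2.19 ± 0.26 (edgeR adjusted p = 0.00132). In WT cells it had 275 and 238 CPM with DI and 41.1 and 29.8 CPM without, a rise of 2.86 ± 0.25 (edgeR adjusted p = 2.47e-05). The KO response of Hmox1 minus its WT response was -0.67 ± 0.35 and did not pass (edgeR adjusted p = 0.240). The KO counts of this list were 1 and 1 without KO untreated replicate 1, 2 and 0 without KO untreated replicate 2, 1 and 0 without KO DI replicate 1 and 2 and 0 without KO DI replicate 2, and in WT cells 1 gene was lower, with 7 higher, without either KO untreated library.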

How the data were processed

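The authors deposited unnormalized read counts for each Ensembl gene, in 8 columns whose names match the labels' titles. Genome mm10 and the tools STAR, HTSeq and DESeq2 are listed per the submitters' processing notes, and versions, settings and the annotation release are not given in the sources used here. Per the labels' extract protocol, an oligo-dT primer with 15 T started each cDNA, libraries were pooled by Actb level, and 12 PCR cycles gave strand-specific reads. No molecular identifier is described, so repeated reads of a molecule cannot be told apart from separate molecules.

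Identifiers were matched to GENCODE release M21 (GRCm38), which named 21745 of 22165 genes. Counts were filtered with filterByExpr (minimum count 10), scaled by TMM and tested in R 4.3.3 with edgeR 4.0.16 (quasi-likelihood F-test, robust option), with 1 mean per group over all 8 libraries. Comparisons were DI against untreated in each genotype, KO against WT in each treatment, and the KO minus WT difference of DI responses. Standard errors are the log2 fold change divided by the root of F. Within groups, libraries disagreed beyond counting error (chi-square over degrees of freedom 15.2 to 45.3). Alternatives were DESeq2 1.42.0, its size factors in edgeR, no filter, each library left out, a replicate block, only the 2 groups compared and, added with earlier results known, an offset for A-rich coding sequence. The steps were tested on simulated data.

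The members and gene lists were chosen with earlier results of these data known. All members were tested in every comparison, but not every value is given. A list could give up to 3 called genes with the smallest p per comparison. Which of those were described was decided after their values were seen. Some results are not reported here. Rac3 was dropped from the coactivator list before testing because the symbol belongs to a GTPase.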

Additional observations from a re-analysis of the deposited data

Results flagged for a closer look

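The DI response of 8 genes named by the rules above differed between KO and WT cells by edgeR's test of the difference itself. The KO minus WT difference on the log2 scale was 1.42 for Nfe2l1 (adjusted p = 0.0154) and 1.62 for Glmn, a regulator of RBX1 (adjusted p = 0.0334). Glmn missed the threshold without either KO untreated library, WT untreated replicate 2, KO DI replicate 1 or WT DI replicate 2. With the A-rich trend removed it was 1.04 (adjusted p = 0.146). The difference was -3.69 for Gclm, -3.64 for the peroxiredoxin gene Prdx1 and -3.91 for the catalase gene Cat, of the NRF2 target list. It was -2.69 for Blvrb, -2.77 for Slc48a1 and -1.72 for the ferritin gene Ftl1, of the BACH1 target list.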

How the results depend on the processing

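The number of members called with DI in WT cells, 3 in the reported fit, was 5 with DESeq2 and 2 to 3 without 1 library. With DI in KO cells, 2 were called, against 4 with no filter, 1 with the A-rich trend removed and 0 to 2 without 1 library. In KO against WT cells under DI, 5 were called, against 3 with the A-rich trend removed, 3 in a fit of only these groups and 3 to 5 without 1 library. In untreated cells the count of 1 was 0 to 1 without 1 library. For the difference of DI responses the count of 1 was 2 with no filter, 3 with DESeq2 and 0 to 2 without 1 library. With the replicate block the 5 counts were 2, 2, 5, 1 and 1, and Bach1 was not called in WT cells (adjusted p = 0.0554). The labels do not say that the numbers pair libraries, and deviations of same-numbered libraries from their group means correlated at -0.08 to 0.16. With 2 libraries a group, such values cannot exclude a pairing of modest effect. Where 1 library was left, it was assumed to vary like the other groups. Signs turned only for uncalled values. DI in WT became 0.042 for Cul3 and KO against WT under DI 0.23 for Mafk with the A-rich trend removed, and DESeq2 gave 0.0015 for Bach1 under DI. Without 1 library, the DI change in WT cells spanned -0.35 to 0.63 for Nfe2l2, -0.64 to 0.42 for Cul3 and -0.58 to 0.27 for Mafk, and in KO cells -0.019 to 0.21 for Keap1, -0.0019 to 0.13 for Mafk and -1.10 to 0.15 for Bach2. KO against WT spanned, under DI, -0.47 to 0.39 for Mafk, -0.054 to 0.0026 for Bach1 and -0.23 to 1.02 for Bach2, and untreated, -0.17 to 0.0072 for Nfe2l1, -0.91 to 0.15 for Cul3, -0.57 to 0.090 for Mafk and -0.32 to 0.087 for Bach2. The difference of responses spanned -0.21 to 0.37 for Maff, -0.20 to 0.65 for Mafk and -0.11 to 1.15 for Bach2. The cause of these shifts was not tested. Low counts limit Maff, Mafk and Bach2.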
